A study of Drosophila melanogaster with 9 samples.

Results

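The genes described here encode nuclear proteins that handle messenger RNA between its transcription and its release to the cytoplasm. The list holds 10 genes, 4 heterogeneous nuclear ribonucleoproteins (hnRNPs; Hrb98DE, Hrb87F, Hrb27C and sqd), 4 splicing factors of the serine- and arginine-rich (SR) family (B52, SF2, SC35 and x16), the nuclear poly(A)-binding protein Pabp2 and PNUTS, which targets protein phosphatase 1 to the nucleus. On the Affymetrix Drosophila Genome 2.0 array, where each probe set is a group of short oligonucleotides for a transcript, 17 of the 18769 probe sets analysed carry one of these symbols. They stand for 8 of the 10 genes, out of 11982 genes with a probe set of their own, and sqd and x16 had no named probe set and were not analysed here. Hrb98DE, Pabp2 and PNUTS are among the genes that the study listed as lowered in constant hypoxia from these same arrays. The list was thus drawn up with the values of constant hypoxia against normoxia known, and those values are given here as a description, with no p-value.

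The flies were whole adults of Canton-S, which is a wild type strain, kept for 2.5 hours in 1 of 3 conditions. These were normoxia (NC), constant hypoxia (CH) at 1% O2, or intermittent hypoxia (IH), with 1% O2 for 4 min followed by 21% O2 for 4 min in each cycle and a ramp between the levels. Each sample was made from 25 males and females aged 5 to 6 days, so both sexes and all tissues share a signal, and each condition had 3 arrays. Whether the 3 samples of a condition were exposed separately is not stated, and the p-values therefore cover the spread among these arrays alone, which can be technical.

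As a nascent pre-mRNA leaves RNA polymerase, hnRNPs coat it and SR proteins mark its exons, and the balance between both families sets which splice sites are used. After cleavage of the 3′ end, Pabp2, the fly counterpart of PABPN1, binds the growing poly(A) tail and helps poly(A) polymerase to control its length. PNUTS brings protein phosphatase 1 to chromatin, where the enzyme removes phosphates from proteins of the transcription machinery near gene ends. In flies under heat shock, several hnRNPs are known to gather in nuclear bodies built on the noncoding RNA of hsr-omega.

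The signals are intensities on a linear scale, and differences were taken between group means of log2(signal + 16), where the added 16 makes the differences of dim probe sets smaller. The median signal of an array was 594 to 823, and signals under 100 made up 21.6% to 25.8% of each array. The member signals ran from 106 to 47745. A difference in signal of a whole fly cannot tell fewer cells of a type from less RNA per cell. The 3′ to 5′ signal ratio of the GAPDH control, a sign of RNA integrity, was 1.52 to 1.66 in NC, 1.35 to 1.98 in CH and 1.68 to 1.82 in IH, so that IH lay above NC. For the actin control it was 1.23 to 1.94, 1.26 to 1.68 and 1.23 to 1.65 in that order. For the eIF-4a control it was 2.83 to 3.52, 3.08 to 3.44 and 2.79 to 3.13. The part of RNA integrity in the results was not tested. The 18S rRNA control at the 3′ end had signals of 44.8 to 166 in NC, 561 to 890 in CH and 164 to 1960 in IH, so that CH lay above NC, and its part in the results below was not tested. Markers of the testis had a summed signal of 76664 to 89764 in NC and 96943 to 113027 in CH over 17 probe sets, and those of the male accessory gland 186212 to 205338 and 214284 to 256348 over 12. In both lists no probe set stayed under 100 on all arrays, and the median log2 difference in CH was 0.23 and 0.28. The summed signal of 21 ovary probe sets was 904744 to 1177328 in NC and 1086474 to 1360665 in CH, and these overlapped. In CH 13 of the 21 lay above 0, with a median log2 difference of 0.15. The part of these tissues in the results was not tested.

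A single probe set of each of Hrb98DE, Pabp2 and PNUTS had a lower signal in CH, while the other probe sets of the same genes lay near their normoxic level. The lower sets differed from NC by -0.84, -1.42 and -1.25 on the log2 scale, and the 4 other sets of these genes by -0.02 to 0.14. In IH the same 3 sets differed from NC by -0.25, -0.54 and -0.14. These IH values rested in part on single arrays, and that of PNUTS turned to 0.094 without IH replicate 1 and was -0.40 without IH replicate 2. That of Hrb98DE was -0.15 without IH replicate 3 and -0.37 without IH replicate 2. Levels of different probe sets cannot be compared with each other, so conditions are compared within a probe set, or by how the ratio of a pair of sets differs between conditions.

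Hrb98DE encodes Hrp38, an hnRNP of the A1 type that binds pre-mRNA and acts in alternative splicing. Its probe set 1638912_s_at had signals of 2779, 2543 and 2419 in NC, 1335, 1518 and 1454 in CH, and 2110, 2553 and 1869 in IH. Every CH array lay below every NC and every IH array, and the IH arrays overlapped those of NC. In NC the mean was 2580 ± 183 (SD, n = 3 arrays), against 1436 ± 93 in CH and 2177 ± 347 in IH. The log2 difference was -0.84 (standard error 0.17) in CH and -0.25 (standard error 0.17, 95% interval -0.64 to 0.14) in IH. The second probe set, 1640169_s_at, had signals of 18339, 18923 and 18862 in NC, 17775, 17627 and 20025 in CH and 18473, 17911 and 20495 in IH. Its arrays overlapped in all 3 conditions, with log2 differences of -0.020 in CH and 0.017 in IH (standard error 0.14 for both).

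Pabp2 was read by 3 probe sets. The dimmest, 1629694_at, had signals of 587, 650 and 744 in NC, 278, 431 and 106 in CH, and 615, 393 and 371 in IH. All CH arrays lay below all NC arrays, with CH replicate 3 far below the others, and the IH arrays overlapped both groups. The means were 661 ± 79 in NC, 272 ± 163 in CH and 459 ± 135 in IH (SD, n = 3 arrays), in the order NC, IH, CH, with neighbours in that order overlapping. The log2 difference in CH was -1.42 (standard error 0.44), and it was -0.89 when CH replicate 3 was left out, a change of over 1.5 times on the log2 scale that rests on that array. In IH it was -0.54 (standard error 0.44, 95% interval -1.56 to 0.48). The probe set 1631244_a_at had a mean of 5193 ± 508 in NC, 5159 ± 179 in CH and 6102 ± 787 in IH, with log2 differences of -0.0053 and 0.23 (standard error 0.16). The third, 1639719_at, varied widely in IH, from 1138 to 3018, with log2 differences of 0.027 in CH and -0.0043 in IH (standard error 0.34).

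PNUTS has 2 probe sets. The signals of 1633750_s_at were 2971, 3221 and 2937 in NC, 1322, 1162 and 1335 in CH, and 1994, 3974 and 2650 in IH. The CH arrays formed a tight group below all other arrays, and the IH arrays spread on both sides of those of NC. The means were 3043 ± 155 in NC, 1273 ± 96 in CH and 2872 ± 1009 in IH (SD, n = 3 arrays), and the log2 difference was -1.25 (standard error 0.25) in CH and -0.14 (standard error 0.25, 95% interval -0.70 to 0.43) in IH. The other set, 1623583_at, had signals of 2087, 2511 and 2486 in NC, 3197, 2045 and 2646 in CH and 3203, 2184 and 2743 in IH. These overlapped in all conditions, with log2 differences of 0.14 in CH and 0.19 in IH (standard error 0.22).

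**Figure D1:**
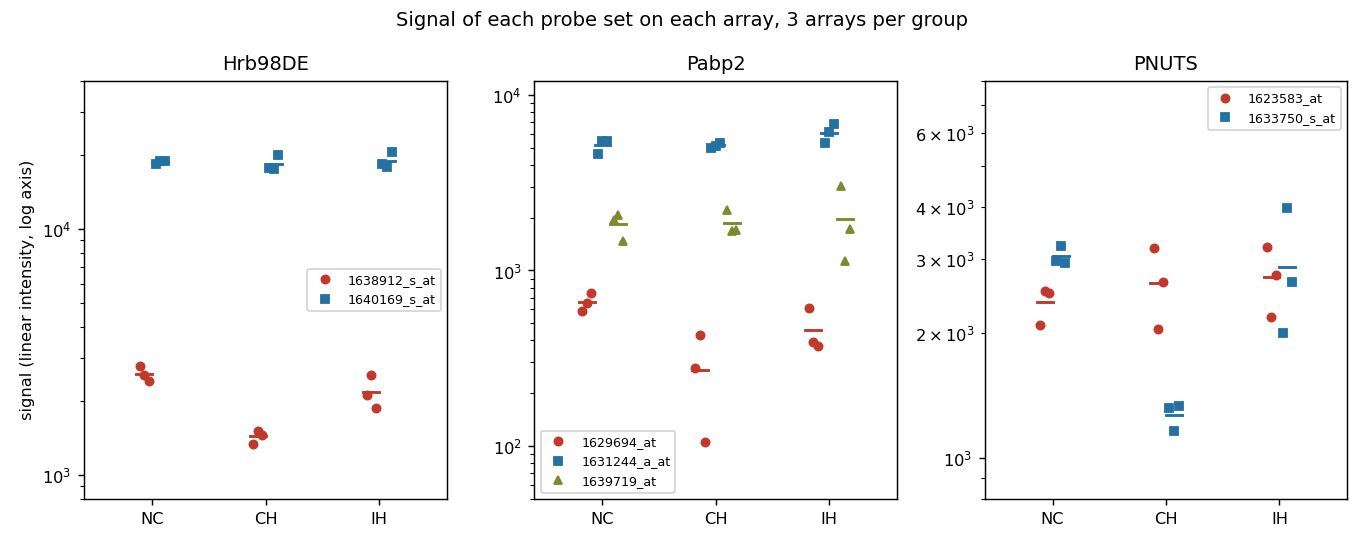
Signal of each probe set of Hrb98DE, Pabp2 and PNUTS on each array, as linear intensity on a log axis, for NC, CH and IH with 3 arrays each. Points are arrays and short lines are means of the linear signals. For 1 probe set of each gene all CH points lie below all NC points (for PNUTS 1633750_s_at 1162 to 1335 against 2937 to 3221), while the other sets of the gene overlap.

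Both probe sets of a gene are read from the same RNA on the same array, so their ratio leaves out the scaling of the array. The lower set was picked as the one of its gene lowest in CH against NC. A lower mean ratio in CH than in NC thus follows from that choice, and the ratios describe its size and spread. The log2 ratio of the lower set of Hrb98DE to its other set was -2.72, -2.89 and -2.95 in NC, -3.72, -3.52 and -3.77 in CH and -3.12, -2.80 and -3.44 in IH. For PNUTS the ratio was 0.51, 0.36 and 0.24 in NC, -1.26, -0.81 and -0.98 in CH and -0.68, 0.86 and -0.05 in IH. In both genes the CH ratios lay below every ratio of the other conditions, and the mean difference from NC was -0.82 and -1.38. For Pabp2, the ratio of 1629694_at to 1631244_a_at was -2.94, -3.05 and -2.86 in NC, -4.09, -3.52 and -5.46 in CH, and -3.08, -3.91 and -4.16 in IH. Here the CH and the IH arrays all lay below those of NC, and CH and IH overlapped. Against the other partner, 1639719_at, the ratio was -1.71, -1.64 and -0.97 in NC, -2.92, -1.92 and -3.82 in CH and -2.27, -1.50 and -2.16 in IH. The CH arrays again lay below NC, but IH overlapped NC, so the separation of IH depended on the partner, and 1631244_a_at itself had a log2 difference of 0.23 in IH.

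**Figure D2:**
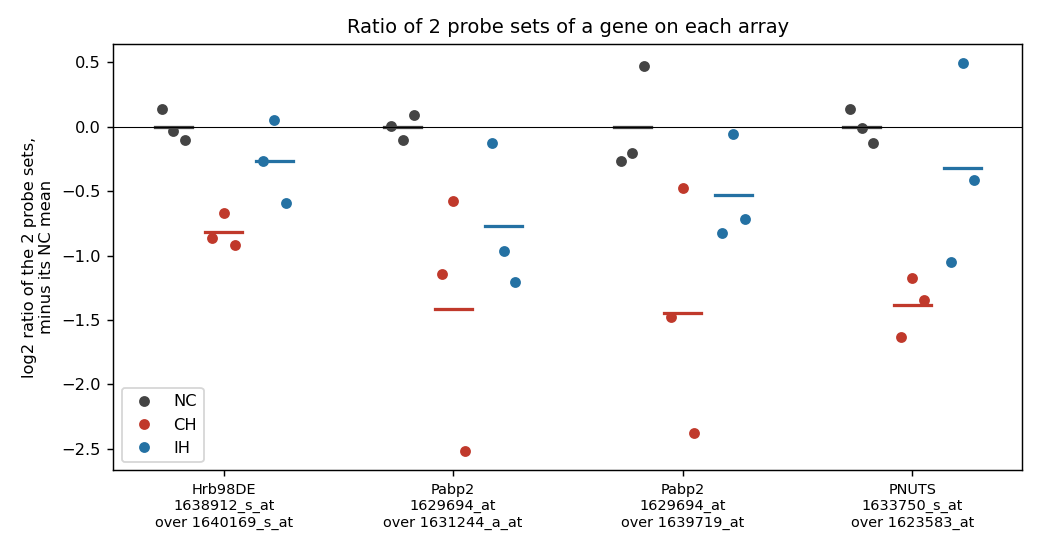
Log2 ratio of the lower probe set, picked as the lowest in CH against NC, to another set of the same gene on each array, after subtracting its mean over the NC arrays. Points are arrays and short lines are group means. The CH mean lies at -0.82 for Hrb98DE, -1.41 and -1.44 for Pabp2 and -1.38 for PNUTS.

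Of the 8 genes, 5 have more than 1 probe set, and in 3 of these a set had all CH arrays below all NC arrays past the fold limit of 0.67, as chosen by the rule, with another set of the same gene within 1.25-fold. Over all genes with 2 or more probe sets, 43 of 1094 (3.93%) had a set that was lower in this way, and 28 of those 43 (65.1%, or 2.56% of the 1094) had another set within 1.25-fold. Most of these 43 genes thus also had a set near its normoxic level, but 67.9% of all probe sets lay within 1.25-fold in CH. Another set near its normoxic level is therefore not particular to genes with a lower set. The probe sets of a gene read different stretches of its transcripts, and which transcripts or ends the sets named here read was not determined. RefSeq lists 6 transcripts for Hrb98DE, 4 for PNUTS and 2 for Pabp2. In the array's naming, the suffix _s_at marks a set whose probes are shared by several transcripts, which may be of different genes, _a_at one that reads alternative transcripts of a gene, and _at one unique to a transcript. Both Hrb98DE sets and the lower PNUTS set, 1633750_s_at, are of the first kind. The other PNUTS set, 1623583_at, and the lower Pabp2 set, 1629694_at, are of the last.

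The other hnRNPs had no such difference. Hrb87F, which encodes Hrp36, the close relative of Hrp38, had signals of 5307, 5587 and 6771 in NC, 6628, 5038 and 6543 in CH and 3102, 7140 and 6757 in IH. The groups overlapped, and IH replicate 1 stood far below the other 8 arrays. The log2 difference was 0.041 in CH and -0.14 in IH (standard error 0.32), and the latter was 0.25 without IH replicate 1. Hrb27C encodes Hrp48, which acts in splicing and in the control of oskar mRNA in the oocyte, and its signals were 37608, 47745 and 42671 in NC, 33952, 41052 and 44257 in CH and 38295, 37124 and 44280 in IH. They overlapped in all conditions, with log2 differences of -0.10 and -0.094 (standard error 0.18).

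Among the SR proteins, the probe sets of SF2 and SC35 had slightly lower means in CH, and those of B52 went either way. SF2, the fly counterpart of SRSF1, helps to select splice sites. Its set 1629409_s_at had signals of 1607, 1739 and 1882 in NC, 1555, 1444 and 1499 in CH and 1595, 2056 and 1667 in IH. Its set 1634975_at had 21703, 23170 and 23260 in NC, 21623, 20087 and 21379 in CH and 23894, 18501 and 25716 in IH. In both sets the CH arrays lay just below those of NC, by log2 differences of -0.21 and -0.11 (standard errors 0.16 and 0.17). SC35, the counterpart of SRSF2, had signals of 14273, 14064 and 13369 in NC, 13661, 11402 and 12199 in CH and 16074, 13592 and 14884 in IH. CH overlapped NC by CH replicate 1 alone, with a log2 difference of -0.17, and IH differed from NC by 0.092 (standard error 0.15 for both).

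B52 encodes SRp55, an SR protein found at sites of active transcription, and has 5 probe sets and 10 RefSeq transcripts. The bright sets 1624547_s_at and 1628399_s_at had means of 13565 ± 1751 and 19574 ± 837 in NC, 13376 ± 919 and 21051 ± 2423 in CH, and 13820 ± 2701 and 20442 ± 2095 in IH (SD, n = 3 arrays). Their log2 differences from NC were -0.014 and 0.10 in CH, and 0.017 and 0.059 in IH. The 3 dimmer sets were lower on average in CH, by -0.32 for 1631082_at, -0.48 for 1632447_at and -0.25 for 1633821_at, and by -0.22, -0.40 and -0.10 in IH. Their arrays overlapped in every case, and the values rested on single arrays. In CH, 1631082_at was at 0.047 without CH replicate 1 and -0.57 without NC replicate 1, and 1632447_at at -0.99 without NC replicate 1 and -0.17 without NC replicate 3. The value of 1633821_at was -0.14 without CH replicate 1. In 1632447_at the NC arrays themselves ran from 591 to 1886, and replicate 1 was the lowest array of each condition.

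**Figure D3:**
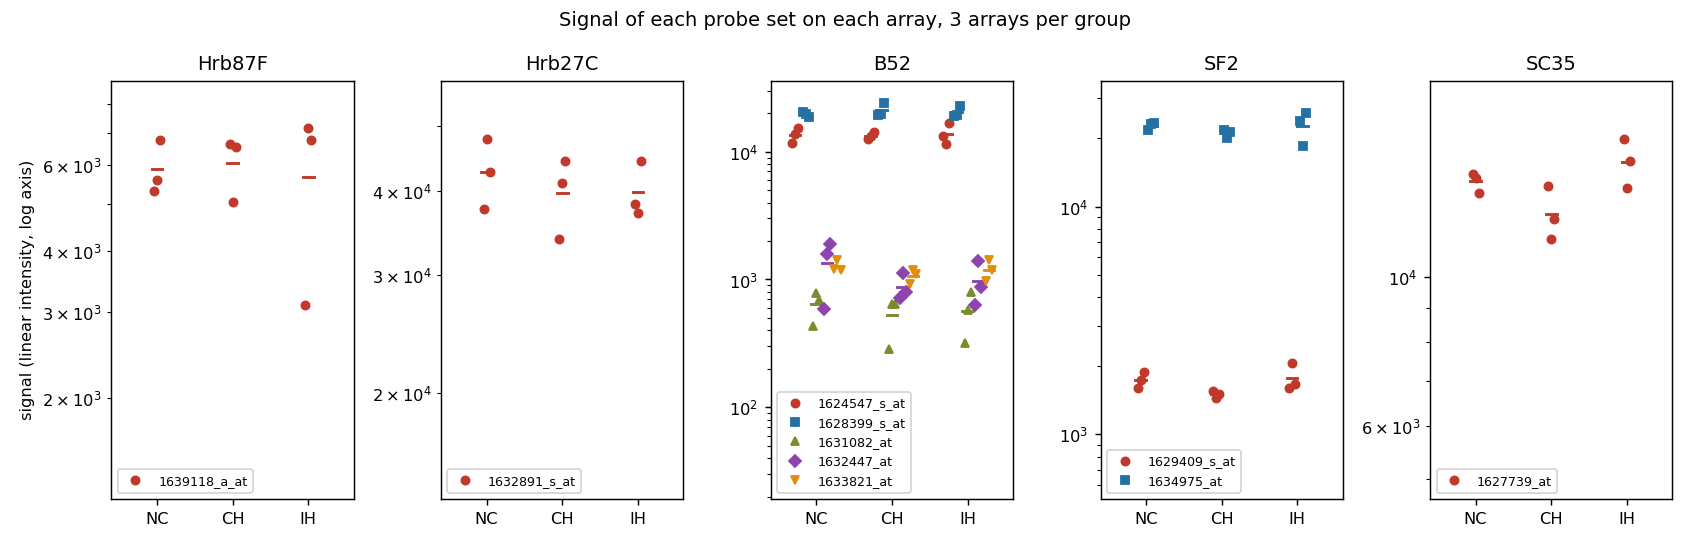
Signal of each probe set of Hrb87F, Hrb27C, B52, SF2 and SC35 on each array, as linear intensity on a log axis, for NC, CH and IH with 3 arrays each. Points are arrays and short lines are means of the linear signals. The conditions overlap for all of them but SF2, whose CH arrays lie just below NC (1444 to 1555 against 1607 to 1882 for 1629409_s_at).

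Over all 17 probe sets, 13 had a log2 difference below 0 in CH, with a median of -0.11, where 48.3% of all probe sets lay below 0 and their median was 0.01. The arrays of CH lay below all of NC for 5 of the 17, which are the 3 lower sets and both SF2 sets, and for 5.39% of all probe sets, while 0 of the 17 lay above all of NC, against 7.13%. A fold limit of 0.67 left 3 of the 5, against 1.55% of all probe sets. Since the members were chosen with this contrast known, these counts describe them and nothing is read from them.

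In IH, 10 of the 17 lay below 0, with a median of -0.01, where 54.7% of all probe sets lay below 0 with a median of -0.02. No probe set had all IH arrays on one side of all NC arrays, against 4.03% of all probe sets below and 2.63% above. A probe set was called where limma gave a p under 0.05 after Benjamini-Hochberg adjustment over all probe sets, the fold was past 1.5 or 0.67, and all arrays lay on one side of the other mean. By this rule 0 of the 17 were called in IH, against 0% of all probe sets. With an unadjusted p under 0.05 and the same limits 0 passed, where 1.92% of all were lower and 1.21% higher. At any fold, 0 of the 17 had an unadjusted p under 0.05, but the matching share of all probe sets was not computed, so nothing is read from it. The smallest unadjusted p among members was 0.173 (limma, adjusted p = 1.00), for Hrb98DE 1638912_s_at. For the 12 probe sets with a standard error under 0.25, the 95% intervals of the IH difference lay within -0.70 and 0.70, while those of the others reached from -1.56 to 0.78. The NC arrays of this comparison also served the one known at the choice of members.

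Tested directly, CH was lower than IH in 14 of the 17 probe sets, where 43.0% of all probe sets lay below 0, and 0 of the 17 were called by limma, against 0.0373% of all. The difference between CH and IH was -1.11 for PNUTS 1633750_s_at (standard error 0.25, 95% interval -1.67 to -0.54, adjusted p = 0.390 from limma). It was -0.59 for Hrb98DE 1638912_s_at (standard error 0.17, 95% interval -0.98 to -0.20, adjusted p = 0.672 from limma). For Pabp2 1629694_at it was -0.88 (standard error 0.44, 95% interval -1.90 to 0.14, adjusted p = 0.999 from limma), and it ran from -1.29 without CH replicate 2 to -0.35 without CH replicate 3. Without adjustment, the sets of PNUTS and Hrb98DE passed a p of 0.05 and the same limits as lower in CH than in IH, 2 of 17 against 1.02% of all probe sets, and 0 passed as higher, against 3.06%. The CH arrays lay below all IH arrays for 3 of the 17, those 2 and SF2 1629409_s_at, against 2.79%, and above all IH arrays for 0, against 5.07%. The CH arrays are those of the contrast known at the choice of members, so these values are not independent of it. Means of tissue markers were higher in CH than in IH for 12 of 12 probe sets of the male accessory gland and 14 of 17 of the testis. They were also higher for 17 of 19 of muscle and 14 of 17 of neurons. The counts were 9 of 21 for the ovary and 2 of 6 for the fat body. The median log2 differences were 0.33, 0.26, 0.15, 0.27, -0.013 and -0.18 in that order. The summed signals of CH and IH overlapped in all 6 lists. For the gland they were 214284 to 256348 in CH and 142736 to 243560 in IH. All CH arrays lay above all IH arrays for 0 of 12 gland, 2 of 17 testis, 0 of 19 muscle and 1 of 17 neuron probe sets, against 5.07% of all. Probe sets of a list share their arrays, so the counts are not independent. The part of these tissues in the result was not tested.

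**Figure D4:**
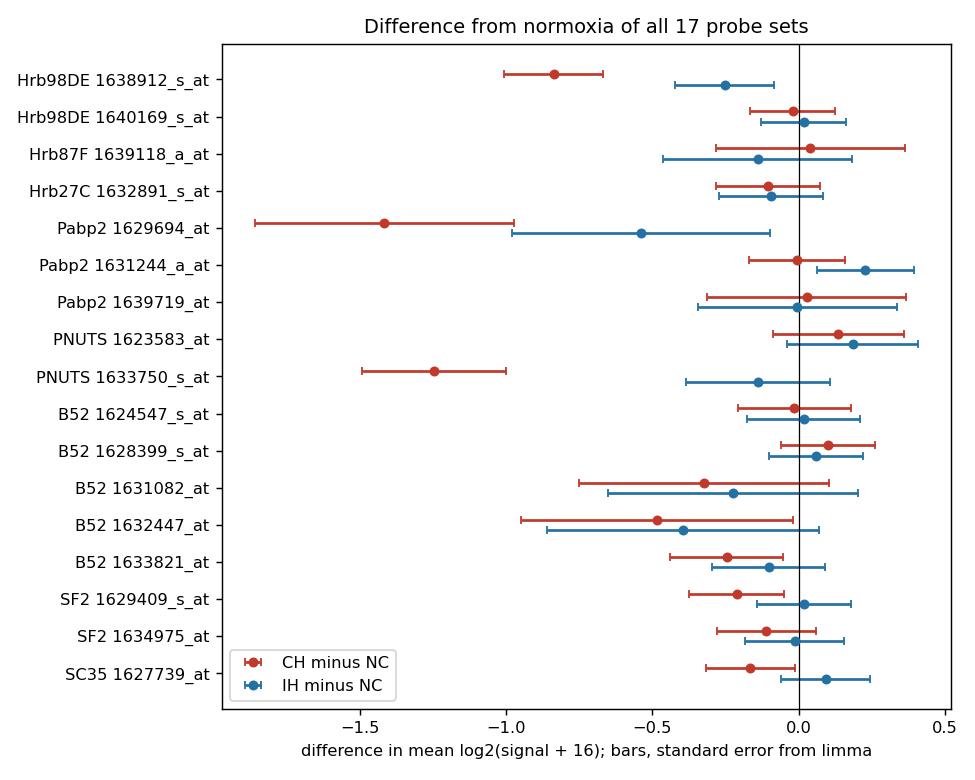
Difference of CH and of IH from NC for the 17 member probe sets, in mean log2(signal + 16), with bars for the standard error from limma. In CH the sets 1638912_s_at, 1629694_at and 1633750_s_at lie at -0.84, -1.42 and -1.25, and the other 14 between -0.48 and 0.14; in IH all lie between -0.54 and 0.23.

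The genes around the members were drawn from 9 lists of related functions, without the members themselves. They gave 102 probe sets of 87 genes, of which 46 lay above 0 in CH with a median of -0.01 and 51 in IH with a median of 0.001. By limma 0 of the 102 were called in CH, against 0.0213% of all probe sets, and 0 in IH, against 0%. Without adjustment, with p under 0.05 and the fold limits, 2 of the 102 were higher and 0 lower in CH, where 2.54% and 1.33% of all probe sets were, and 0 passed in IH. In CH 3 of them had all arrays below NC, all within the fold limit, and 7 had all arrays above, which is no larger a share than the 5.39% and 7.13% of all probe sets.

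For splicing, the median log2 difference in CH was 0.09 for 7 probe sets of other hnRNPs, 0.01 for 9 of other SR proteins and their kinases, and -0.05 for 19 of the core spliceosome. SRPK, a kinase that phosphorylates SR proteins, had 2603, 2656 and 2582 in NC and 2182, 2200 and 2220 in CH, a log2 difference of -0.25 (standard error 0.18, adjusted p = 1.00 from limma). Rsf1, which represses splicing by binding SR proteins, also had a log2 difference of -0.25 in CH with arrays that did not overlap. The splicing regulator tra, which acts in sex determination, had one of 0.26 in CH and 0.19 in IH, and all arrays of both conditions lay above NC. Rb97D, an hnRNP needed for male fertility, was the single probe set among the other hnRNPs with all IH arrays above NC, by 0.31, with an adjusted p of 1.00 from limma.

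For 3′ end formation, 18 probe sets of cleavage and polyadenylation factors lay between -0.20 and 0.18 in CH, with a median of -0.05, and Wdr33, a subunit that recognises the polyadenylation signal, was at the lower end with -0.20. The cytoplasmic poly(A)-binding protein pAbp had a log2 difference of -0.07 in CH and -0.27 in IH. Paip2, which binds pAbp and represses translation, had all CH arrays above NC, with 20384, 21225 and 21205 in NC and 24047, 26396 and 29557 in CH, and a log2 difference of 0.34 (standard error 0.16, adjusted p = 1.00 from limma). Probe sets of mRNA export factors, 12 in all, ranged from -0.11 to 0.20 in CH, and 9 of the exon junction complex and mRNA decay from -0.50 to 0.18.

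The list of protein phosphatase 1 subunits and partners, which held PNUTS, had 15 other probe sets with a median of 0.05 in CH and 0.05 in IH. Both probe sets higher at an unadjusted p under 0.05 were in this list. PpN58A, a catalytic subunit of the phosphatase 1 type, had 622, 516 and 359 in NC and 657, 1067 and 739 in CH, a log2 difference of 0.70 (standard error 0.28, adjusted p = 0.988 from limma). I-3, an inhibitor of protein phosphatase 1, was dim, with 48.0, 117 and 110 in NC and 374, 173 and 185 in CH, a log2 difference of 1.26 (standard error 0.50, adjusted p = 0.996 from limma). Pp1-13C, another catalytic subunit, had a log2 difference of 0.44 with CH arrays above all NC arrays. Of the partners of hsr-omega and its nuclear bodies, 8 probe sets had a median of -0.004 in CH, and hsr-omega itself was not analysed here.

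**Figure D5:**
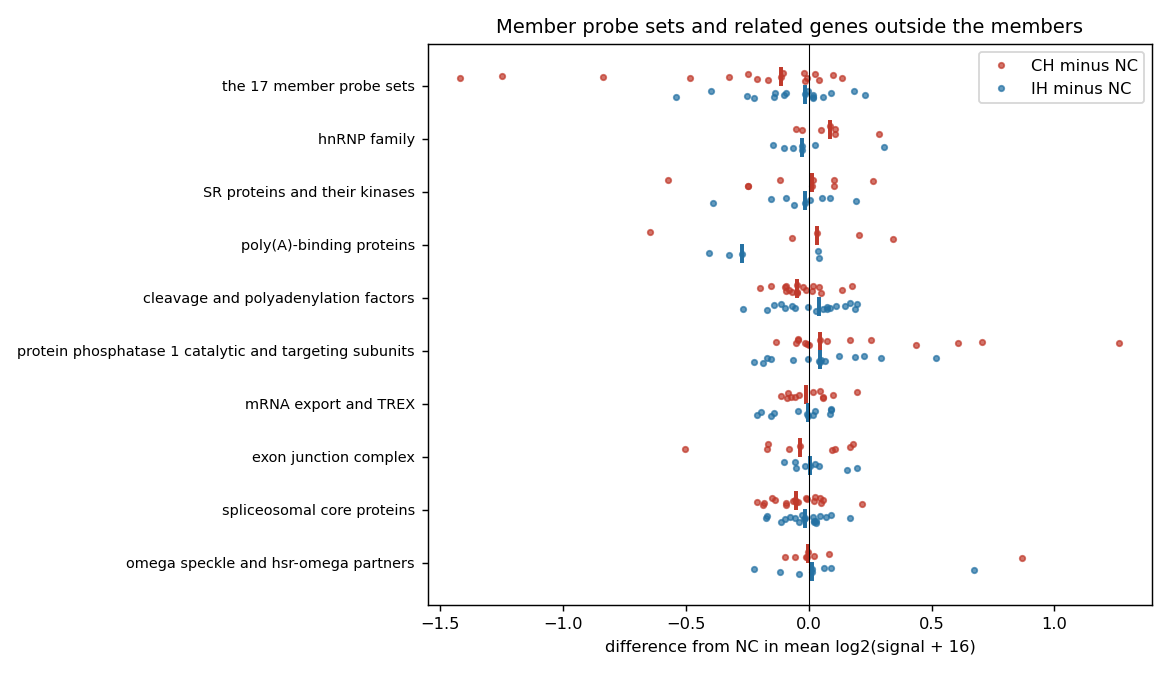
Difference of CH and of IH from NC in mean log2(signal + 16), for the 17 member probe sets and for 9 lists of related genes outside the members. Points are probe sets and vertical strokes are medians. The 3 points of the members furthest to the left in CH lie at -1.42, -1.25 and -0.84, and the related probe sets lie between -0.65 and 1.26.

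Several members share their place in the genome with each other or with other genes, by the RefSeq gene table of the Release 6 assembly, which does not give strand here. Hrb87F and B52 are neighbours, as are x16 and Hrb27C. Pabp2 overlaps Obp44a, an odorant-binding protein gene, whose signal was 22584 to 24124 in NC and 22121 to 28548 in CH, with a log2 difference of 0.08. SF2 overlaps Sulf1, with a log2 difference of 0.03 in CH, and SC35 overlaps eRF3, a translation termination factor, with -0.03. Hrb98DE holds 7 small nucleolar RNA genes.

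The arrays also ranked all other named probe sets by likeness to the 3 lower sets, with Pearson's r over the 9 arrays among 12094 probe sets with a mean signal of at least 100. The lower sets of Hrb98DE and PNUTS had r = 0.916 with each other, and that of Pabp2 had r = 0.713 with Hrb98DE and 0.564 with PNUTS. Each was picked as the set of its gene lowest in CH against NC, so a positive r follows in part from that choice. Nearest to Hrb98DE were CG15695 (r = 0.966), CG9132 (0.942) and CG5973 (0.933). Nearest to PNUTS were scf (0.945), yellow-f2 (0.937) and LanB1, a laminin subunit (0.936), and nearest to Pabp2 were CG32099 (0.926), Amnionless (0.918) and the cuticle protein gene Cpr78Cb (0.915). The points share their arrays and the 3 conditions, and the genes were the highest of many compared, so these values describe likeness on these arrays only.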

How the data were processed

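Total RNA of whole flies was hybridized to 9 Affymetrix Drosophila Genome 2.0 arrays, 3 for each of NC, CH and IH. Normalization by the authors used the affy package of Bioconductor, with options that the sources used here do not give. What was deposited is an intensity for each probe set, not log2 transformed, with a mean of 2500 on every array after 2% of probe sets at each end are left out. There are no read counts, and the number of arrays limits the precision. Members were the probe sets whose single symbol in the platform annotation is on the list. After 183 control probe sets were left out, log2(signal + 16) was fitted for 18769 probe sets with limma 3.58.1 in R 4.3.3 (lmFit and eBayes, 1 coefficient per group, all 9 arrays, prior degrees of freedom 2.19). VAMPIRE, which the methods name for testing, was not used here. The members and gene lists were chosen with earlier results of these data known, and no list was tested as a set. Every member probe set is named, with up to 3 genes of each related list by smallest p and the 3 probe sets most alike to each lower set. The single values of Obp44a, Sulf1, eRF3 and pAbp were added after they were seen. Alternatives were other samples, a replicate block, filters, normalizations, added constants, thresholds and leaving out arrays. The fit was tested on simulated data. No table of sequences was used.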

Additional observations from a re-analysis of the deposited data

Results flagged for a closer look

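The 18S rRNA control probe set at the 3′ end, which enters no comparison of genes, stood apart between groups, with a CH minus NC difference of 2.83 on the log2 scale and no overlap of those arrays. The cause was not tested.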

How the results depend on the processing

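The count of 0 called member probe sets in each comparison held for each alternative that kept an adjusted p under 0.05. With an unadjusted p under 0.05 and the same fold and direction limits, 3 passed as lower in CH against NC. Of all probe sets, 1.33% were lower and 2.54% higher in this way. The members were chosen with that contrast known, so this count is a description and nothing is read from it. In IH against NC 0 passed, against 1.92% lower and 1.21% higher. In CH against IH 2 passed as lower, against 1.02% lower and 3.06% higher. Replicate numbers were not taken as pairs in the main fit. The reason was that some correlations of deviations between arrays of the same number were under 0.1 (0.0918 to 0.322). All 9 arrays nevertheless correlated best with their own number in both other groups, and the cause was not tested. The standard errors, p-values and intervals given above come from the fit without this grouping. With the replicate number as a block 0 members were called in any comparison, and the 4 probe sets higher in CH over the whole table became 1. They became 0 when only the 2 groups were fitted, and the 5 higher and 2 lower in CH against IH became 0 with the block, 3 and 0 with 2 groups, and 8 and 4 with quantile normalization. The median over the 17 members, -0.10 for CH against IH, was -0.21 with quantile normalization, -0.22 with each array centred on its median, which shifted the median of all probe sets by -0.13, and -0.18 without the 3 arrays numbered 1, a setting chosen after seeing the data. The median in IH against NC, -0.014, was 0.068 with centring. Leaving out 1 array gave medians of -0.11 (without IH replicate 3) to 0.035 (without IH replicate 1) in IH against NC, so that the direction turned, and -0.082 without NC replicate 1. In CH against IH it gave -0.21 (without IH replicate 1) to -0.032 (without IH replicate 3), and -0.20 without CH replicate 2, and in CH against NC -0.15 to -0.096. The cause of these shifts was not tested. The difference of Hrb87F between CH and IH, 0.18, was -0.27 without the arrays numbered 1. The PNUTS set 1633750_s_at differed from NC by -1.29 to -1.18 and the Hrb98DE set 1638912_s_at by -0.88 to -0.73 in CH over the alternatives, and the Pabp2 set 1629694_at by -1.83 to -0.89. The Pabp2 set was at -1.83 without CH replicate 2 and at -0.89 without CH replicate 3. The 3 arrays per group limit what could be seen, and signals near 100 are the least certain.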
